A study of Homo sapiens with 6 samples.

Results

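Surface markers of endothelial cells were followed in cultured human melanoma cells. The list named 10 genes by symbol, and 5 of them were read here, out of 770 genes measured. These were PECAM1, ROBO4, CD34, S1PR1 and EMCN, while CDH5, ENG, VWF, ESAM and CLDN5 were not analysed here. The cells were A375-BRAFV600E/NRASQ61K and A375-BRAFV600E/NRASQ61, an isogenic pair of A375, a human malignant melanoma cell line. Both lines carry BRAF V600E, an activating mutation of the kinase BRAF, and are sold under catalogue names that end in LUC2. One of them has in addition NRAS Q61K, a mutation that locks the GTPase NRAS in its active form, and the other has wild-type NRAS. Neither line was treated, and cells were used no more than 5 population doublings after thawing. There were 3 RNA samples per line, and nothing in the labels says that they came from separate cultures, so p-values measure only the spread between these samples. Since each genotype is represented by 1 line, the mutation and any other difference between the lines cannot be told apart. Whether the mutant line is a single clone is not given in the sources used here.

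Endothelial cells line blood vessels and are usually recognised by a set of surface proteins that hold the cells together, sense flow and growth factors, and guide leukocytes across the wall. PECAM1, or CD31, is an adhesion molecule of endothelial junctions that is also carried by platelets and leukocytes. CD34 and EMCN, or endomucin, are sialomucins of the vessel lining, and CD34 also marks blood progenitor cells. ROBO4 is the roundabout receptor of endothelial cells, and stabilises the vessel wall in mice. S1PR1 is the receptor for sphingosine 1-phosphate, a blood lipid that tightens endothelial junctions and directs lymphocyte traffic. Tumour cells, melanoma among them, can express some of these genes without being endothelial.

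The promoters of ROBO4, which was lower in NRAS Q61K cells under each of 5 scalings, and of CD34, which had no stable direction, are shown because they are the start regions of the tested members that a sequence was at hand for. Each covers 250 bases before and 50 bases after an annotated transcript start, on the gene's own strand, from RefSeq on GRCh38.p14. ROBO4 lies on the minus strand at chr11:124897816-124898115, and CD34 on the minus strand at chr1:207911076-207911375. Capitals mark AGGAAG, a core bound by ETS family factors, or GGGCGG, the GC box bound by SP1 family factors, searched on both strands.
ROBO4: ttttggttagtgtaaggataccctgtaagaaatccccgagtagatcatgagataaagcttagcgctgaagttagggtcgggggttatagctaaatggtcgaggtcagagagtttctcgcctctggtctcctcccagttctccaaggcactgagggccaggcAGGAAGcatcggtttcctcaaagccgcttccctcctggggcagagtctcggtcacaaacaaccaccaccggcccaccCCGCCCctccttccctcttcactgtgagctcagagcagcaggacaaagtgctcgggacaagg
CD34: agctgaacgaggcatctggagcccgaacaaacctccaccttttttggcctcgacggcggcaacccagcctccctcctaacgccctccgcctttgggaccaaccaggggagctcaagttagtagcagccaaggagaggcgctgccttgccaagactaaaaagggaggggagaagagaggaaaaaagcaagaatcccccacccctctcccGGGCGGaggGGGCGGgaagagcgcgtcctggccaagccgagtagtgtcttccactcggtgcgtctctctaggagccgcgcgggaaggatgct
The ROBO4 window held 1 AGGAAG, 89 bases before the start, and 1 GC box on the opposite strand, 12 bases before it. The CD34 window held 2 GC boxes, 42 and 33 bases before the start, and no AGGAAG. Neither motif is rare, since 33.6% of 35116 RefSeq promoters of this length hold AGGAAG and 45.0% hold the GC box. No motif overlapped another in these windows, and a match describes letters and not binding.

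In the nCounter assay each target RNA is captured by a pair of probes, 1 of which carries a colour barcode that is counted with no amplification step. Summed over genes, background-subtracted counts came to 1158000 to 1190000 in NRAS Q61K samples and 1224000 to 1265000 in NRAS wild-type samples, to the nearest 1000. The deposited values are normalized counts, scaled by 1 factor per sample of 1.11 to 1.161 in NRAS Q61K samples and 0.898 to 0.903 in wild-type samples. No value of NRAS itself was used, so the genotype labels stand unchecked. Wild-type samples 2 and 3 differed by no more than counting noise over the 454 tested genes (chi-square per degree of freedom 1.08, p = 0.125) but by more over 548 genes above a lower floor (1.14, p = 0.0119). The other 5 pairs within a line differed by more than counting noise over both sets. Wild-type samples 2 and 3 were therefore kept as separate samples, and the values with them averaged as 1 are given beside the results they change. Of the 17 melanocyte and melanoma markers listed 4 were in the table, MCAM, CSPG4, SOX9 and ERBB3, and all 4 were above the detection floor in both lines. All 4 were called higher in NRAS Q61K cells on the deposited scale and under the other 4 scalings. Of all tested genes 62.1% were called higher as deposited, and 32.8% to 38.3% under the others. The log2 differences as deposited were 2.77 for ERBB3, 1.74 for CSPG4 and 0.76 for both MCAM and SOX9. Their summed level was 8544 to 8984 normalized counts in NRAS Q61K samples and 3422 to 3459 in wild-type samples, and its part in the values of endothelial genes was not tested.

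The level of each marker was judged against 8 negative control probes, which match no human RNA. NEG_H read 112 to 134.5 counts in NRAS Q61K samples and 125 to 144 in wild-type samples, and NEG_G read 75.5 to 131 and 84.8 to 113. The other 6 probes stayed at or below 24.8 counts in NRAS Q61K samples and 23.8 in wild-type samples. The detection floor, the mean of the 8 probes over all samples plus 2 SD, was 129.7 and thus rests on the pair of bright probes. PECAM1, ROBO4 and CD34 exceeded all 8 probes in each of the 6 samples. S1PR1 exceeded 5 or 6 of the 8 in NRAS Q61K samples and 6 or 7 in wild-type samples. EMCN exceeded 5, 0 and 5 of the probes in NRAS Q61K samples and was at the table's minimum of 1 in every wild-type sample. The floor therefore kept 3 of the 5 members for the test.

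**Figure D1:**
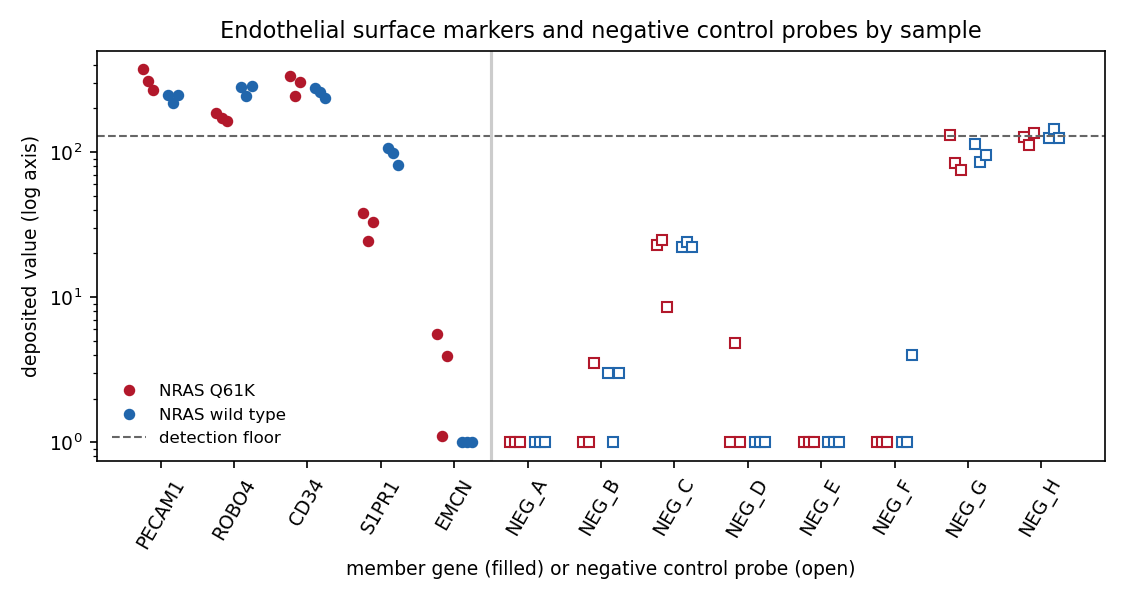
Deposited value of each marker (filled circles) and of the 8 negative control probes (open squares, not scaled between samples) in each sample, on a log axis, with 3 NRAS Q61K samples left of 3 wild-type samples; the dashed line is the detection floor of 129.7. PECAM1, ROBO4 and CD34 lie above every control probe, S1PR1 lies among them and EMCN at the bottom.

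PECAM1, the junctional adhesion molecule, was above all control probes in both lines and was slightly higher in NRAS Q61K cells on the deposited scale alone. It had 371, 309.6 and 268 normalized counts in NRAS Q61K samples, against 247, 219 and 247 in wild-type samples. The lowest NRAS Q61K sample lay just above the highest wild-type samples, so the lines did not overlap. The means were 316 ± 52.0 and 238 ± 16.0 (SD, n = 3 each), a log2 difference of 0.40 ± 0.12 (SE) or 1.32-fold (limma adjusted p = 0.0220). A change in the share of cells that express a gene and one in its RNA per cell cannot be told apart in such bulk samples. The NRAS Q61K samples spread more widely than the wild-type ones, with a coefficient of variation of 16.4% against 6.74%. Before scaling, the counts were 319.8, 278.8 and 239.5 in NRAS Q61K samples and 275, 242.8 and 275 in wild-type samples, and the lines overlapped. The log2 difference became 0.072 without the sample factors (adjusted p = 0.582) and 0.085 when samples were scaled by their positive control probes (0.549). It turned to -0.051 after rescaling to equal sample medians (0.648) and -0.086 after quantile normalization (0.452). The call was also lost without wild-type replicate 2 (log2 difference 0.34, adjusted p = 0.0736) and with wild-type samples 2 and 3 averaged as 1 (0.39, 0.0508). On the deposited scale 62.1% of the 454 tested genes were called higher, and PECAM1 lay 0.080 above the median log2 difference of 0.32.

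ROBO4, the endothelial roundabout receptor, was lower in NRAS Q61K cells by every measure tried. It had 184, 171 and 163 normalized counts in NRAS Q61K samples, against 279, 243 and 286 in wild-type samples. Every NRAS Q61K sample lay below every wild-type sample, with a gap larger than the spread within either line. The means were 173 ± 10.9 and 269 ± 23.2 (SD, n = 3 each), 1.55-fold lower with a log2 difference of -0.64 ± 0.078 (SE, limma adjusted p = 0.000337). Before scaling, the counts were 158.8, 153.8 and 145.5 in NRAS Q61K samples and 311, 268.8 and 318 in wild-type samples. NEG_H, the brightest control probe on average, had 125 ± 11.7 in NRAS Q61K samples and 132 ± 10.6 in wild-type samples, so ROBO4 in NRAS Q61K cells was only a little above it. The log2 difference was -0.96 without the sample factors, -0.95 with positive control scaling, -1.09 with equal medians and -1.16 after quantile normalization, and ROBO4 was called lower under each. The share of tested genes called lower was 35.8%, 31%, 45.4% and 45.2% in the same order. The difference on the deposited scale ranged between -0.71 and -0.59 when each sample was left out in turn, with adjusted p at most 0.00241. Of the 454 tested genes 20.9% were called lower, and 35 had a more negative log2 difference than ROBO4.

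CD34, the sialomucin of vessel lining and blood progenitors, was above background in both lines and no difference was resolved. It had 333, 245 and 303 normalized counts in NRAS Q61K samples, against 278, 261 and 236 in wild-type samples. The lowest NRAS Q61K sample lay among the wild-type samples. The means were 294 ± 44.7 and 258 ± 21.1 (SD, n = 3 each), with a log2 difference of 0.18 and a 95% interval of -0.13 to 0.48 (limma adjusted p = 0.223). That interval admits a gain as large as the one fitted for PECAM1, so the data do not show that CD34 was equal. Its direction depended on the scaling, with -0.15 without the sample factors, -0.14 with positive control scaling and -0.28 with equal medians, none of which passed. After quantile normalization it was called lower (-0.29, adjusted p = 0.0356), and without NRAS Q61K replicate 2 on the deposited scale it was called higher (0.30, adjusted p = 0.0215).

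In all, 2 of the 3 tested markers were called, 1 higher and 1 lower, while 83% of all 454 tested genes were called in either direction. The lines were free of overlap for 2 of the 3 markers and for 84.1% of all tested genes. The 3 markers had a median log2 difference of 0.18 and all tested genes one of 0.32. Counting alone gives an SD of at least 13.5 to 20.8 normalized counts per sample for the 3 markers. The SD between NRAS Q61K samples was well above that for PECAM1 and CD34, at 52.0 and 44.7, while the others were 10.9 to 23.2.

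**Figure D2:**
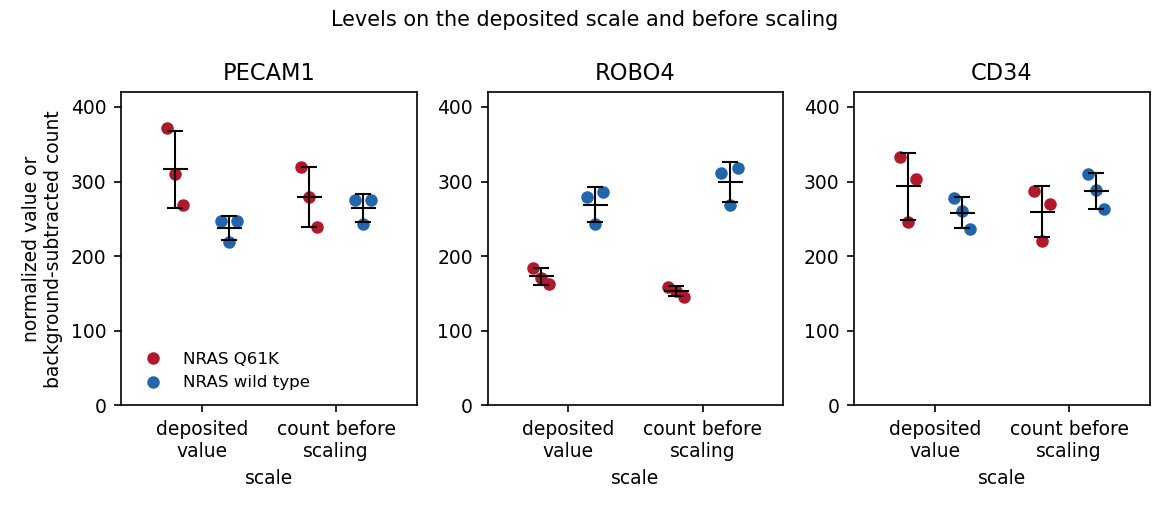
Values of PECAM1, ROBO4 and CD34 per sample on the deposited scale (left pair in each panel) and as background-subtracted counts before scaling between samples (right pair), with the mean and SD of 3 samples in black. Only ROBO4 keeps the lines apart on both scales, and PECAM1 overlaps before scaling.

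**Figure D3:**
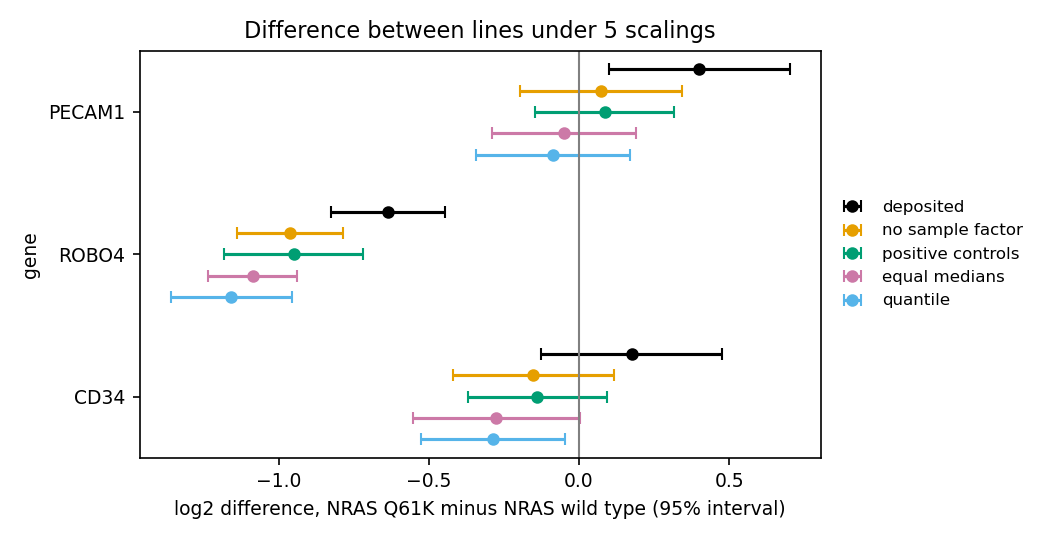
Log2 difference of NRAS Q61K minus NRAS wild type with its 95% interval from limma (n = 3 per line) under the deposited scaling and 4 others. ROBO4 stays between -0.64 and -1.16, while PECAM1 and CD34 have points on both sides of 0.

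Ratios of markers within a sample were compared between the lines because 1 factor per sample cancels in them. The log2 ratio of PECAM1 to ROBO4 was 1.01, 0.85 and 0.72 in NRAS Q61K samples and -0.18, -0.15 and -0.21 in wild-type samples. The lines were thus well apart, by 1.04 on the log2 scale, and the ratio was above 0 in NRAS Q61K samples and below it in wild-type samples. The log2 ratio of CD34 to ROBO4 differed by 0.81 between the lines, at 0.75 ± 0.20 against -0.058 ± 0.19 (SD, n = 3 each), without overlap. For PECAM1 to CD34 the difference was 0.22, at 0.11 ± 0.26 and -0.12 ± 0.16, and the samples overlapped. Exact 2-sided permutation tests gave p = 0.10 for both ratios to ROBO4, the smallest that 3 against 3 samples allow, and 0.30 for PECAM1 to CD34. Adjusted over the 3 ratios these became 0.15, 0.15 and 0.30. The ratio of 2 probes says nothing of which transcript is the more abundant, only that they changed unequally.

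S1PR1, the sphingosine 1-phosphate receptor, stayed below the floor in both lines and was not part of the test. It had 38.1, 24.2 and 33.0 normalized counts in NRAS Q61K samples, against 106, 98.2 and 80.9 in wild-type samples. All NRAS Q61K samples lay below all wild-type samples, also before scaling, at 21.8 to 32.8 against 90 to 118 counts. Both lines thus lay within the range of the control probes. With no floor, limma called S1PR1 lower (adjusted p = 0.00152), where 17% of 740 genes were called lower, and no fold is given because both lines were under the floor. EMCN had 5.61, 1.11 and 3.92 normalized counts in NRAS Q61K samples and 1 in each wild-type sample. The value of 1.11 is the minimum multiplied by the sample factor, so EMCN was at background in both lines.

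For each tested marker the genes with the most similar pattern over the 6 samples were found by the root mean square difference of their mean-centred log2 values among all tested genes. GPR124, RAMP2 and KLK3 came closest to PECAM1, at 0.045, 0.064 and 0.075. GPR124 averaged 288 ± 43.3 in NRAS Q61K cells and 216 ± 19.8 in wild-type cells (SD, n = 3 each). EVI2A, PGK1 and FST came closest to ROBO4, at 0.046, 0.075 and 0.076, and EVI2A averaged 222 ± 22.6 against 344 ± 24.0. ELF3, TDGF1 and AGGF1 came closest to CD34, at 0.043, 0.091 and 0.093, and ELF3 averaged 182 ± 27.4 against 157 ± 7.21.

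Of 54 other endothelial genes listed 34 were in the table, and 11 of these were above the floor. On the deposited scale 9 of the 11 were higher in NRAS Q61K cells, none was lower and 2 did not pass. Of all 454 tested genes 62.1% were called higher and 20.9% lower on that scale. The split was 6 higher and 2 lower without the sample factors, with equal medians and after quantile normalization. With positive control scaling it was 5 higher and 1 lower. Of all tested genes 32.8% to 38.3% were called higher and 31% to 45.4% lower under these scalings. KDR was under the floor and not tested without the sample factors or with positive control scaling. The same held with the floor set at the highest control value. FLT1 and KDR, receptors for vascular endothelial growth factors, passed the floor only through NRAS Q61K cells. The floor itself therefore favoured a difference in them, and the count cannot be read as support. KDR had 241, 251 and 192 normalized counts in NRAS Q61K samples against 38.6, 43.2 and 35.9 in wild-type samples, at least 1.76-fold higher. FLT1 had 382, 349.6 and 377 against 111, 100.1 and 120.4, at least 2.85-fold higher. The bounds divide the NRAS Q61K mean by the floor and apply to the deposited scale alone. The log2 difference of FLT1 was 1.73 as deposited and 1.41 without the sample factors. It was 1.42 with positive control scaling, 1.28 with equal medians and 1.19 after quantile normalization. The wild-type mean of FLT1 was under the floor, at 110.6 as deposited and 122.9 without the sample factors. These fitted differences therefore give a direction and not a measured size. Of the 9 genes above the floor in both lines, 7 were higher as deposited, and the median log2 difference of the 9 was 0.47. It was 0.32 for all tested genes, an unlike set that includes genes above the floor through NRAS Q61K or wild-type cells alone.

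GJA5, the gap junction protein connexin 40 of arteries, was 3.78-fold higher, with 736, 623 and 629.9 normalized counts in NRAS Q61K samples against 189, 159.6 and 174 in wild-type samples (limma adjusted p = 2.92e-06). NRP2, a co-receptor for vascular endothelial growth factors and semaphorins, was 2.41-fold higher at 3528 ± 69.2 against 1463 ± 11.2. ICAM1, an adhesion molecule that leukocytes bind, was 2.24-fold higher at 1025 ± 38.3 against 457 ± 20.4, and JAM3, a junctional adhesion molecule, 1.85-fold higher at 1759 ± 14.3 against 948 ± 41.0 (SD, n = 3 each). These 4 genes kept their call under all 4 other scalings. The share of all tested genes called higher was 38.3% without the sample factors, 33.6% with positive control scaling, 32.8% with equal medians and 33.7% after quantile normalization. EPHB4, the receptor for ephrin-B2 on veins, was 1.34-fold higher as deposited but was called under no other scaling, and its direction turned with equal medians and quantile normalization. FLI1, an ETS transcription factor of endothelial and blood cells, was 1.36-fold higher, kept its call under 1 of the 4 other scalings and had negative differences under the same pair. RAMP2, a subunit of the adrenomedullin receptor, was 1.38-fold higher (adjusted p = 0.0343), and lost its call under all 4 other scalings, with no floor, with wild-type samples 2 and 3 averaged as 1 (adjusted p = 0.0706), and without NRAS Q61K replicate 2 (0.0548) or wild-type replicate 1 (0.0611), 2 (0.107) or 3 (0.0537). F11R, another junctional adhesion molecule, had 346 ± 41.3 and 318 ± 8.67, and NRP1, a co-receptor like NRP2, 3992 ± 67.7 and 3904 ± 62.0. Neither passed as deposited. NRP1 was called lower under all 4 other scalings (adjusted p at most 0.026), and F11R under 3 of them, with adjusted p = 0.0421 without the sample factors, 0.00417 with equal medians and 0.00736 after quantile normalization. Without NRAS Q61K replicate 3 on the deposited scale F11R was called higher (log2 difference 0.20, adjusted p = 0.025).

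**Figure D4:**
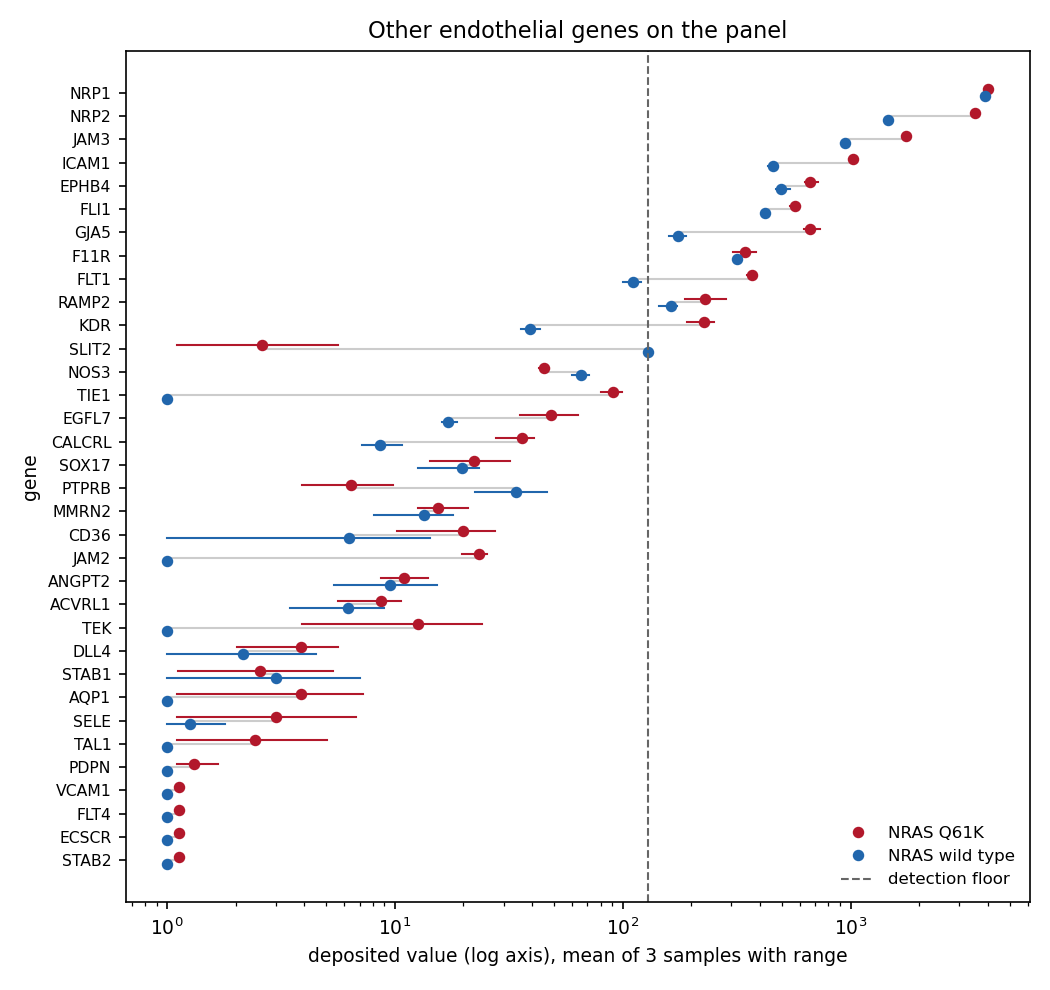
Mean and range of 3 samples per line for the 34 other endothelial genes in the table, ordered by overall mean, on a log axis; the dashed line is the detection floor of 129.7. The 11 genes at the top have an overall mean above the floor, and KDR and FLT1 cross it between the lines.

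The rest of the listed endothelial genes in the table had an overall mean below the floor. TIE1 and TEK, the receptor kinases of the angiopoietin system, had 79.9 to 99.1 and 3.92 to 24.2 normalized counts in NRAS Q61K samples and were at 1 in every wild-type sample. FLT4, VCAM1, ECSCR and STAB2 were at the table's minimum in all 6 samples. JAM2, the partner of JAM3, had 19.8 to 25.4 counts in NRAS Q61K samples and 1 in each wild-type sample. SLIT2, a secreted ligand of roundabout receptors, had 1.11 to 5.61 counts in NRAS Q61K samples against 125 to 133 in wild-type samples, where its mean of 129.5 was just under the floor. NOS3, endothelial nitric oxide synthase, had 42.8 to 47.6 against 60.2 to 70.9, and PTPRB, a phosphatase of endothelial junctions, 3.92 to 9.81 against 22.5 to 46.7. With no floor limma called 17 of the 34 genes higher and 3 lower, against 53% and 17% of all 740 genes. Of the 17, 4 were genes at the minimum in every sample, where only the sample factor differed. The 53% holds such genes too, PTPRC, COL1A2 and CNN1 among them, and they were not taken out of either share.

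PECAM1 and CD34 are also found on blood cells, so the levels of other blood cell markers are given beside them. Of 26 haematopoietic markers 4 were in the table, and none of the 8 platelet markers listed. PTPRC, or CD45, the pan-leukocyte phosphatase, was at the minimum in all 6 samples, and CD163, a macrophage receptor, reached at most 7.28 counts in NRAS Q61K samples and 7.19 in wild-type samples. ITGB2 and ITGAM, subunits of leukocyte integrins, had 237 to 276 and 111 to 158 counts in NRAS Q61K samples against 189 to 243 and 86.3 to 129 in wild-type samples, and only ITGB2 had a mean over both lines above the floor, while ITGAM exceeded it in the mean of NRAS Q61K samples alone. The summed level of the 4 markers was 354 to 436 in NRAS Q61K samples and 283 to 374.5 in wild-type samples, and its part in the values of PECAM1 and CD34 was not tested.

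Fibroblasts and mural cells surround vessels, and 12 of 18 listed markers of them were in the table, 5 with an overall mean above the floor. PDGFRB, a growth factor receptor of pericytes, LUM, a matrix proteoglycan, and FAP, a protease of activated fibroblasts, passed the floor only through NRAS Q61K cells. The floor itself therefore favoured a difference in them. PDGFRB averaged 685.5 ± 23.7 in NRAS Q61K samples and 91.4 ± 9.47 in wild-type samples, LUM 463 ± 13.1 and 93.8 ± 12.4, and FAP 149 ± 10.5 and 113 ± 13.4 (SD, n = 3 each). FAP was called higher as deposited, was not called with equal medians (log2 difference -0.0545, limma adjusted p = 0.555) and was called lower with quantile normalization. It was not tested without the sample factors or with positive control scaling. ANPEP, an aminopeptidase, was called lower under all 5 scalings, at 3272 ± 45.8 against 6011 ± 190.1, while DCN, another matrix proteoglycan, was called under none. The collagen genes COL1A1 and COL3A1 reached at most 25.4 counts in NRAS Q61K samples and 17.1 in wild-type samples, and COL1A2 was at the minimum in all 6. PDGFRB and LUM were called higher under all 5 scalings, which the floor favoured. The summed level of the 12 markers was 4824 to 5153 in NRAS Q61K samples and 6506 to 6876 in wild-type samples. ANPEP was the largest part of the sum, so the sum does not give the direction of the list as a whole. The part of these markers in the values of endothelial genes was not tested.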

How the data were processed

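Total RNA of 6 samples, 3 per line, was read with the nCounter PanCancer Progression panel, per the labels. Groups and replicate numbers come from the sample titles. The deposited table holds 1 normalized signal per gene and sample, linear and never below 1; per the deposited values, each is a whole count minus a background, times 1 factor per sample. With the factors found, 100% of values between 1.5 and 400 came out whole within 0.03. The factors bring the geometric mean of 30 housekeeping genes, recognised by symbol, to 728 to 733 in every sample. The authors' software and its settings are not given in the sources used here. Control rows were not scaled.

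Of 740 endogenous genes, the 454 with a mean above the floor were compared with limma (version 3.58.1, R 4.3.3) on log2(value + 1), which understates changes of low genes, with a 2-sided moderated test of NRAS Q61K minus wild type and Benjamini-Hochberg adjustment at 0.05. The fit was tested on simulated data. Positive control scaling set the geometric mean of the 6 positive control probes equal. Promoters of 4 of the 5 members were found by symbol. Named were the members, other endothelial genes that were called or above the floor, and the 3 nearest genes per tested member; other named genes were chosen after their values were seen. Members and lists were chosen with earlier results of these data known.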

Additional observations from a re-analysis of the deposited data

How the results depend on the processing

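The alternatives were a pseudocount of 32, other floors, a variance trend, 4 other scalings, a replicate block and leaving out each sample. A floor from the 6 dimmer control probes and the averaging of wild-type samples 2 and 3 were chosen after seeing the data. ROBO4 kept its direction and call under all of these. The ratio of PECAM1 to ROBO4 was not computed for the floors, the variance trend or the averaging. A factor per sample cancels in it and the block leaves it unchanged, so those settings could not test it. It was 0.92 with a pseudocount of 32 and 1.07 after quantile normalization, against 1.04 as deposited. In the order no sample factors, positive controls, equal medians and quantile normalization, PECAM1 was 0.072, 0.085, -0.051 and -0.086 and CD34 -0.15, -0.14, -0.28 and -0.29 (log2). In the same order NRP1 was -0.30, -0.28, -0.42 and -0.40 and F11R -0.21, -0.20, -0.34 and -0.34. With equal medians and quantile normalization EPHB4 was -0.025 and -0.041, and FLI1 -0.011 and -0.051. The sample factors were 1.11 to 1.161 in NRAS Q61K samples and 0.898 to 0.903 in wild-type samples. They bring the housekeeping genes to a common level. Before scaling, the geometric mean of those genes was 627 to 661 in NRAS Q61K samples and 808 to 814 in wild-type samples. For the positive control probes it was 1329 to 1516 and 1396 to 1490, and the lines overlapped. Why the housekeeping genes differ between the lines was not tested. With positive control scaling limma pooled the spread fully, so that PECAM1, CD34, NRP1, F11R, EPHB4 and FLI1 share a standard error of 0.118. The p-values under that scaling are not those of single genes. The count of other endothelial genes called was 20 with no floor and 15 with the floor from the dimmer probes, where more genes are tested. PECAM1 was 0.39 and not called with wild-type samples 2 and 3 averaged. Leaving out each sample gave 0.28 to 0.51 for PECAM1, 0.080 to 0.30 for CD34, -0.71 to -0.59 for ROBO4, 0.96 to 1.11 for the ratio and 8 to 10 called other endothelial genes, and moved the count of called genes by less than 1.5 times.

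Samples share replicate numbers between the lines, and their deviations correlated at 0.22, 0.053 and 0.066 for equal numbers and at -0.17 to 0.091 for unequal ones. Equal numbers thus tended to be higher, but not every sample correlated best with its own number. The numbers were not taken as pairs in the main fit, and whether they are pairs is not settled. With the replicate number as a block 392 genes were called in place of 377, and no call of PECAM1 (adjusted p = 0.0201), ROBO4 (0.00105) or CD34 (0.157) changed (limma). Counting error adds to the spread of all 3 tested markers.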
